A study of Mus musculus with 9 samples.

Results

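Of the 32285 genes in the deposited tables, 83 stood highest with mizoribine by a wide margin over both of the other states of the culture. They were chosen by CPM, the reads of a gene per 1000000 reads of its library, averaged over the libraries of each group. A gene was kept where the mizoribine mean was at least 5 CPM and at least 4 times the mean of undifferentiated cells and also at least 4 times the mean of vehicle-treated differentiated cells. Of the 10520 genes that reached 5 CPM with mizoribine, 621 were at least 4 times their level in differentiated cells, 271 were at least 4 times their level in undifferentiated cells, and 83 met both limits. Because the levels with mizoribine chose these genes, their excess over the other groups is given below as a description, with no test.

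The study asked how transcription changes when purine synthesis is blocked while preadipocytes are driven toward fat cells, and bulk RNA-seq was run on 9 libraries. The cells were the stromal vascular fraction (SVF) of subcutaneous white fat from neonatal wild-type mice, grown to confluence before use. The labels call the tissue of every library primary adipocytes and its genotype WT. Undifferentiated cells (3 libraries, labelled Undifferentiated) received no adipogenic cocktail. Differentiated cells (3 libraries, labelled Differentiated) were taken 6 days after induction with insulin, dexamethasone and IBMX, followed by a maintenance medium with insulin, troglitazone, rosiglitazone and triiodothyronine, with DMSO as the vehicle. Mizoribine (MIZ) cells (3 libraries, labelled Mizoribine) went through the same 6 days with the same media and 25 µM of the drug. MIZ cells and vehicle cells therefore share the cocktail, including a glucocorticoid, a phosphodiesterase inhibitor and PPARγ ligands, and undifferentiated cells lack all of it. The methods describe 3 biological replicates per condition, and the labels do not tie a library to an animal, so the spread reported here is that between these libraries.

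MIZ is a nucleoside drug that inhibits inosine monophosphate dehydrogenase, the enzyme that commits purine synthesis to guanine nucleotides. SVF cells hold fibroblast-like preadipocytes together with vascular and immune cells. Preadipocytes carry an actin stress-fibre programme that is normally taken down as they round up and fill with lipid. Many genes of that programme are driven by serum response factor (SRF) at a short promoter element called the CArG box, with myocardin-family coactivators that respond to free actin, and others respond to the YAP and TEAD factors of cell stretch and adhesion.

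Library totals ran from 28760721 to 55288455 assigned counts, so a value of 0.1 CPM stands for only a few reads. The adipocyte marker list summed to 795–883 CPM in undifferentiated, 28207–29354 CPM in differentiated and 3308–3994 CPM in MIZ libraries, and the preadipocyte and stroma list to 34761–37967, 7910–8850 and 13299–15998 CPM. The label primary adipocytes is therefore not borne out by adipocyte markers in the undifferentiated libraries, where adiponectin (Adipoq) averaged 0.01 CPM against 605 CPM in differentiated and 61.2 CPM in MIZ cells. Macrophage markers were present in every group, at 6793–6996, 613–1056 and 1157–1582 CPM. In bulk RNA, fewer cells of a type and less RNA per cell cannot be told apart. The first differentiated library, which was also the shallowest, differed most from its own group, and without it the rule chose 84 genes, of which 81 were among the 83.

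Contractile and actin-linked genes were the largest group (18 genes), followed by channel, vesicle and neural genes (15), predicted and noncoding genes (13), immune and inflammatory genes (11), matrix, adhesion and secreted regulators (10), receptors and guidance molecules (8), and enzymes, transport and gene control (8). Of the 83 genes, 72 were annotated as protein coding. Together they took 1.54–1.84% of all counts in MIZ libraries, 0.217–0.236% in undifferentiated and 0.0817–0.100% in differentiated libraries. The contractile genes supplied most of this, with a summed mean of 12567 CPM with MIZ, 1648 CPM in undifferentiated and 322.5 CPM in differentiated cells. Mean levels with MIZ ran from 5.01 to 3699 CPM with a median of 24.3 CPM, and 22 genes lay below 10 CPM.

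The MIZ mean over the higher of the other group means had a median of 6.32 and reached 137, with 19 genes at 10 or more. In every one of the 83 genes each MIZ library exceeded all 6 other libraries, the closest being Serpina3i, whose lowest MIZ library was 2.46 times the highest other. Undifferentiated cells held the higher of the other means for 63 genes and differentiated cells for 20. At the 5 CPM floor the nearest genes reported inside were AC133601.1 (5.16 CPM) and Nexmif (5.16 CPM), and the nearest outside were Akap5 (4.84 CPM), Pard3bos3 (4.71 CPM) and Mfsd2a (4.598 CPM). At the 4-fold limit Gm9913 (4.01), Cdh6 (4.03) and Nexmif (4.06) fell just inside, and Twist2 (3.98), Micall2 (3.97) and Timp1 (3.97) just outside.

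**Figure D1:**
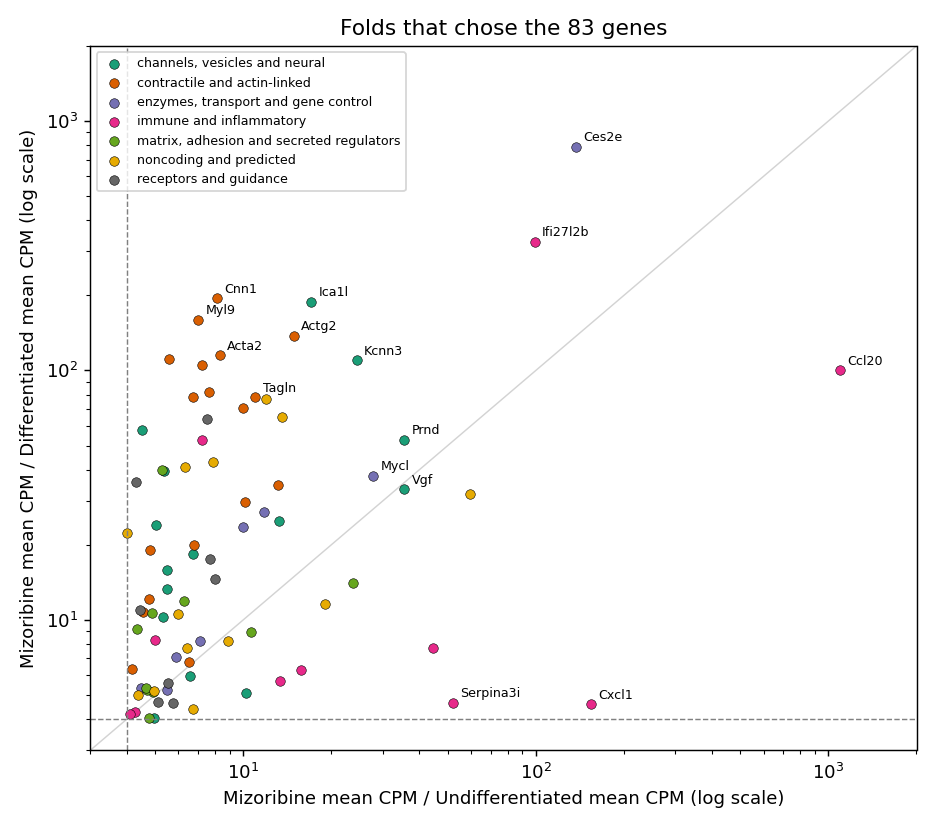
Ratio of the mean CPM with mizoribine to the mean in undifferentiated cells (x axis, log scale) and in differentiated cells (y axis, log scale) for the 83 genes chosen, coloured by role, with dashed lines at the limit of 4. Contractile genes lie far up the y axis at moderate x, Cxcl1 lies far right at 155 and 4.58, and Ces2e and Ccl20 stand apart on both axes.

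Promoter sequence is shown for members of the contractile group, since these genes were the largest and most abundant group and SRF control of such genes is textbook knowledge. RefSeq windows of 300 bases on GRCm38.p6, 250 before to 50 after a gene's start, matched 56 of the 83 genes. For 44 of these 56 the RefSeq start lay within 100 bases of the gene's start in GENCODE. The CArG box (CC, 6 bases of A or T, GG, read on both strands) was found in 3 of these 56 windows, in 1.33% of the windows of the 12440 tested genes that have one, and in 1.57% of all 27025 windows. The matches were in Acta1, Myl9 and Myom1, 3 of the 11 contractile genes with a window (27.3%), and are in capitals below. Genes of the fixed contractile and SRF target list that the rule did not take held it at a like share, 6 of 23 windows (26.1%). Acta2 is printed beside them as the most abundant chosen gene, with no exact match to these letters in its window. Its stretches ccctatatgg and ccttgtttgg each differ from the pattern at a single base and were not counted. The windows are Acta1 at chr8:123894726-123895025 (minus strand), Myl9 at chr2:156775214-156775513 (plus strand) and Myom1 at chr17:71019307-71019606 (plus strand, an annotated start 16924 bases from the outer end of the gene). The Acta2 window is at chr19:34255324-34255623 (minus strand), with its start 217 bases from the outer end of the gene.
Acta1: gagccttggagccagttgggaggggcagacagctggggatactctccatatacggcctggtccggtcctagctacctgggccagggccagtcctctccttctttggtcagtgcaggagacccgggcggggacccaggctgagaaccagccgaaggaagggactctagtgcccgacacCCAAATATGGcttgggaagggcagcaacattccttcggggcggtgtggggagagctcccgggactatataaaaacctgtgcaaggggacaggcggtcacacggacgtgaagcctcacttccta
Myl9: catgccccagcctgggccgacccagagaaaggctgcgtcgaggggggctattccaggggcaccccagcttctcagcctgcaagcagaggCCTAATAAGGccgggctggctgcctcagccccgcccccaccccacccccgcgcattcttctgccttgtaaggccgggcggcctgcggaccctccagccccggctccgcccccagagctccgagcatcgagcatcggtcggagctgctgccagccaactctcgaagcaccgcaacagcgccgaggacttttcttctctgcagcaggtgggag
Myom1: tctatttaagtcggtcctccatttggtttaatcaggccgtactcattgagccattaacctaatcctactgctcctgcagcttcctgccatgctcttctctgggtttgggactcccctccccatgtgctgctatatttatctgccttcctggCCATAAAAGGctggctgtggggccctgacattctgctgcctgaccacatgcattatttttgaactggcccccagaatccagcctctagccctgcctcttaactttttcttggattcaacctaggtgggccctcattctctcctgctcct
Acta2: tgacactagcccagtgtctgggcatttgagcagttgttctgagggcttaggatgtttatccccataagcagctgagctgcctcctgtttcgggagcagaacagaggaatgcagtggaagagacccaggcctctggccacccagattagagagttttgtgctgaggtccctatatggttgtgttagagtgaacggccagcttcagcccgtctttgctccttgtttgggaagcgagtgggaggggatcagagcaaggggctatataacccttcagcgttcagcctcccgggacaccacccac
The match began 73 bases before the start in Acta1, 161 before it in Myl9 and 99 before it in Myom1, counted on the gene's strand. A match is a description of the letters and not a bound site, and the absence of one says only that this window lacks them.

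Other motifs were searched on both strands in the same windows and were held by the chosen genes at shares that can be set beside those of the tested genes. The TEAD motif GGAATGT was in 5 of 56 windows (8.93%, against 2.80% of tested genes), the AP-1 motif TGANTCA in 5 (8.93% against 5.43%) and the E-box CACGTG in 5 (8.93% against 9.65%). The TATA box TATAAA was in 4 windows (7.14% against 7.95%), the NF-kB site in 6 (10.7% against 12.05%) and the p53 decamer in 6 (10.7% against 6.94%). The interferon-stimulated response element was in 2 windows, those of Apol9b and Scube3 (3.57% against 3.09%). The GC box GGGCGG was in 27 (48.2% against 60.7%), and the cAMP element TGACGTCA, the ATF4 element TGATGCAAT and the glucocorticoid response element were in 0. The windows of chosen genes had a median of 11.5 CpG dinucleotides, against 20 for tested genes, and 41.1% held fewer than 10, against 23.6%. These counts are small, and no share was tested.

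The smooth muscle actins and their partners led the contractile group. Acta2 encodes smooth muscle alpha-actin, the defining protein of myofibroblasts and smooth muscle. It stood at 433, 407 and 492 CPM in undifferentiated, 29.9, 25.8 and 40.9 CPM in differentiated and 3401, 3275 and 4421 CPM in MIZ libraries. The groups were far apart, and the third MIZ library was the highest. The MIZ mean of 3699 ± 629 CPM (SD, n = 3) was 8.33 times the undifferentiated and 115 times the differentiated mean. Transgelin (Tagln), an actin-binding protein of smooth muscle, stood at 302, 277 and 323 CPM, then 41.2, 36.6 and 49.1 CPM, then 3125, 3104 and 3709 CPM in the same order of groups. Its MIZ mean of 3313 ± 343 CPM was 11.01 times the undifferentiated and 78.3 times the differentiated mean, with no overlap between any of the groups. Per kilobase of exon the pair were close with MIZ, at 1684 CPM per kb for Acta2 and 1666 CPM per kb for Tagln.

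Myl9, the regulatory light chain of smooth muscle and non-muscle myosin, stood at 88.9, 86.3 and 96.8 CPM in undifferentiated, 3.44, 3.64 and 4.86 CPM in differentiated and 610.0, 579 and 718 CPM in MIZ libraries. Calponin (Cnn1), which restrains actomyosin, stood at 32.0, 31.9 and 41.1 CPM, then 1.01, 1.25 and 2.14 CPM, then 271, 258 and 328 CPM. In both genes differentiated cells were lowest and MIZ cells highest in every library. Enteric gamma-actin (Actg2) had the largest excess of the group over the higher of the other means, 14.9-fold over undifferentiated cells, at 17.2, 17.4 and 20.4 CPM, then 1.11, 2.29 and 2.54 CPM, then 247, 246 and 325 CPM. Skeletal alpha-actin (Acta1) followed at 13.2-fold, with 3.41, 3.45 and 3.997 CPM, then 1.60, 1.13 and 1.39 CPM, then 36.3, 44.2 and 62.4 CPM. The actins have nearly the same coding sequence, so reads could be split between them, and the cytoplasmic actins were far more abundant, with Actb at 3908, 1893 and 5178 CPM and Actg1 at 876, 622 and 1524 CPM in the 3 group means. The low values of Acta1 and Actg2 are uncertain for that reason.

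Other members span the contractile apparatus. Tropomyosin 2 (Tpm2), which lies along actin filaments, averaged 886 ± 68.7 CPM with MIZ, 9.96 times the undifferentiated mean. Smooth muscle myosin heavy chain (Myh11), the motor itself, averaged 156 ± 32.3 CPM, 4.81 times the undifferentiated mean. Leiomodin 1 (Lmod1), which nucleates actin filaments, averaged 118 ± 10.2 CPM (7.22-fold), and Ppp1r14a, an inhibitor of myosin phosphatase, averaged 13.5 ± 0.984 CPM (7.63-fold). Csrp1, a LIM protein of smooth muscle, averaged 537 ± 55.6 CPM, 4.55 times undifferentiated cells. The muscle genes Myom1, a myomesin of the sarcomere, Hspb7, a small heat shock protein, and Sh3bgr were lower in abundance, at 30.8, 19.3 and 6.55 CPM with MIZ. Lims2, a focal adhesion adaptor, was the one contractile gene whose undifferentiated and differentiated libraries overlapped, at 6.63, 5.68 and 6.64 CPM in undifferentiated, 4.28, 6.37 and 7.63 CPM in differentiated and 40.7, 41.0 and 41.7 CPM in MIZ libraries.

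Ccn2 and Ankrd1, a secreted matricellular protein and a nuclear and sarcomeric ankyrin protein, are common readouts of YAP and TEAD. Ccn2 stood at 102, 100.3 and 109 CPM in undifferentiated, 11.9, 6.41 and 8.42 CPM in differentiated and 614, 677 and 800.1 CPM in MIZ libraries. Ankrd1 stood at 2.20, 2.79 and 2.17 CPM, then 1.15, 0.657 and 0.644 CPM, then 20.01, 24.2 and 28.6 CPM. Both had separate ranges in all groups, with differentiated cells lowest.

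**Figure D2:**
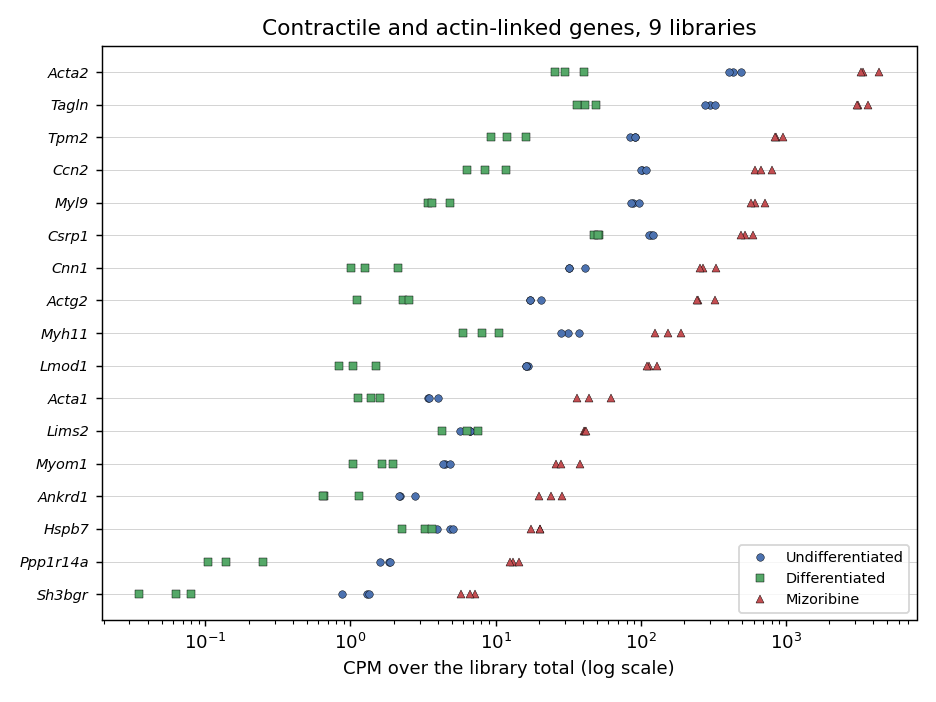
CPM of 17 contractile and actin-linked genes in each of the 9 libraries (log axis), 1 row of points per gene and 1 colour per group. In every gene drawn the mizoribine points lie to the right of all others, and the differentiated points lie left of the undifferentiated points except in Lims2, where these groups overlap, and Hspb7, where they come close.

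Markers of other cells were read beside the contractile genes. The smooth muscle and pericyte list held 17 genes, 6 of them chosen here, and summed to 916–1084 CPM in undifferentiated, 235–276 CPM in differentiated and 7338–9345 CPM in MIZ libraries. Without the 6 chosen genes it summed to 138–153, 155–170 and 219–241 CPM. Of the 9 unchosen genes that were tested, 5 were higher and 2 lower than in differentiated cells, and 5 and 3 than in undifferentiated cells. Mcam and Synpo2 had their highest mean with MIZ, at 28.9, 47.9 and 94.1 CPM and 11.8, 2.58 and 27.3 CPM in the 3 group means. Other markers were absent or not highest there: Higd1b had 0 counts in all libraries, Pln had 0, 2 and 0 counts in the 3 groups, Kcnj8 averaged 8.97, 0.15 and 0.14 CPM, Abcc9 28.4, 2.40 and 0.77 CPM, and Rgs5 1.89, 0.05 and 1.21 CPM. Myocd, the muscle-specific coactivator of SRF, was scarce but highest with MIZ, at 0.779, 0.156 and 2.72 CPM. It was higher than in differentiated (edgeR adjusted p = 8.55e-07) and undifferentiated cells (adjusted p = 6.56e-05). The related coactivators Mrtfa (88.4, 22.5 and 82.5 CPM) and Mrtfb (89.7, 38.7 and 63.6 CPM) were higher with MIZ than in differentiated cells (edgeR adjusted p = 1.59e-10 and 2.29e-06). Against undifferentiated cells Mrtfb was lower with MIZ (adjusted p = 1.79e-05), and no difference was detected for Mrtfa (adjusted p = 0.260). Srf itself averaged 31.2, 34.9 and 62.4 CPM. It was higher with MIZ than in differentiated (edgeR adjusted p = 5.0e-07) and undifferentiated cells (adjusted p = 3.83e-08). The skeletal muscle list without Acta1 summed to 6.28–7.85, 4.28–7.44 and 7.62–10.1 CPM, and Myf5, Myf6 and Pax7 had 0 counts, while of its 7 tested genes besides Acta1, 3 were higher and 0 lower than in differentiated cells and 2 and 2 than in undifferentiated cells. Summed levels of the smooth muscle list without the chosen genes were highest with MIZ, and the part of such cells in the result was not tested.

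Immune and inflammatory genes formed a group of 11 with a different profile in the other cells. Cxcl1, a chemokine that draws neutrophils, stood at 2.23, 2.27 and 2.21 CPM in undifferentiated, 84.9, 69.5 and 72.03 CPM in differentiated and 341, 367 and 329 CPM in MIZ libraries. The groups were ordered without overlap, and the MIZ mean was 155 times the undifferentiated and 4.58 times the differentiated mean. Ccl20, a chemokine for lymphocytes that carry CCR6, had 1 read over all undifferentiated, 9 over all differentiated and 713 over all MIZ libraries. By summed reads its ratio over undifferentiated cells was 888, where the single read allows anything from 159 to 35113 by counting error alone (95%). Its MIZ libraries spread the most of all chosen genes, at 3.997, 6.004 and 9.76 CPM (coefficient of variation 44.4%).

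Ifi27l2b, of a family of small interferon-inducible mitochondrial proteins, was among the sharpest of all, at 0.379, 0.662 and 0.525 CPM in undifferentiated, 0.209, 0.0995 and 0.166 CPM in differentiated and 52.8, 51.1 and 51.7 CPM in MIZ libraries. The MIZ libraries lay close together and 99.3 times above the undifferentiated mean. Its relative Ifi27 averaged 77.6, 290 and 110 CPM in the 3 groups and was highest in differentiated cells. Ifi27l2a, the neighbour of Ifi27l2b in sequence, averaged 14.4, 23.4 and 42.0 CPM, and reads could be split between Ifi27l2a and Ifi27l2b as paralogs. Serpina3i, a protease inhibitor of a family of near-identical copies, is uncertain for the same reason. It stood at 0.308, 0.639 and 0.452 CPM, then 8.24, 4.87 and 2.47 CPM, then 27.96, 24.4 and 20.3 CPM.

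Fas, a death receptor and known p53 target, overlapped between the other groups, at 12.9, 13.5 and 14.8 CPM in undifferentiated and 17.0, 12.1 and 11.9 CPM in differentiated libraries, and stood at 54.3, 59.3 and 62.0 CPM with MIZ. Mmp9, a gelatinase, stood at 4.17, 4.83 and 3.80 CPM, then 14.4, 7.04 and 8.48 CPM, then 49.4, 61.6 and 59.2 CPM. Cd40, a costimulatory receptor, stood at 0.213, 0.166 and 0.452 CPM, then 2.57, 0.995 and 1.23 CPM, then 10.7, 13.7 and 12.7 CPM. Mmp9 and Cd40 lie on chromosome 2 with 2 genes between them, and Acta2 and Fas are adjacent on chromosome 19, 35075 bases apart. Cd72 and Siglecg, inhibitory receptors best known from B cells, averaged 33.5 ± 1.77 and 29.2 ± 1.73 CPM with MIZ. The lymphocyte list of 14 genes summed to 3.93–5.32, 5.60–7.998 and 3.13–5.88 CPM in the 3 groups, and Cd3e, Cd3d and Gzmb had 0 counts. The B-cell receptor genes Cd79a and Cd79b had 3, 4 and 12 and 6, 1 and 1 reads in the 3 groups, while the T-cell receptor gene Trac had 72, 1 and 309 reads and averaged 0.503, 0.00693 and 2.80 CPM, highest with MIZ. Il7r averaged 3.83, 7.06 and 1.12 CPM, lowest with MIZ, and Cd4 had 43, 2 and 4 reads. Of 3 tested genes of the list, 1 was higher and 1 lower than in differentiated cells, and 1 and 2 than in undifferentiated cells. Il34, a ligand of the macrophage receptor Csf1r, and Apol9b, an apolipoprotein L, averaged 7.02 and 6.44 CPM with MIZ. Of 17 tested macrophage markers, 8 were higher and 3 lower with MIZ than in differentiated cells, and 2 rose and 14 fell against undifferentiated cells. Csf1r averaged 398, 64.3 and 56.5 CPM and Adgre1 241.5, 177 and 408 CPM in the 3 groups. The part of lymphocytes and macrophages in these levels was not tested.

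Channel, vesicle and neural genes numbered 15, most of them scarce. Ptprn, a protein of dense-core secretory vesicles, was the most abundant, at 19.6, 19.2 and 18.5 CPM in undifferentiated, 9.39, 6.80 and 4.84 CPM in differentiated and 115, 133 and 139 CPM in MIZ libraries. Kcnn3, a calcium-activated potassium channel, stood at 1.75, 1.80 and 2.01 CPM, then 0.382, 0.438 and 0.416 CPM, then 36.7, 51.2 and 48.1 CPM, a MIZ mean 24.5 times the undifferentiated one. Its relatives did not share this pattern in level, with Kcnn4 at 24.9, 3.59 and 2.98 CPM and Kcnn1 at 4.38, 3.97 and 2.62 CPM in the 3 group means. Vgf, a neuropeptide precursor, overlapped between the other groups (0.261, 0.473 and 0.362 CPM, and 0.452, 0.358 and 0.353 CPM) and stood at 11.3, 13.3 and 14.3 CPM with MIZ. Prnd, a prion-like protein, stood at 0.189, 0.189 and 0.326 CPM, then 0.313, 0.119 and 0.0416 CPM, then 6.56, 7.41 and 10.98 CPM. Ica1l stood at 0.403, 0.662 and 0.687 CPM, then 0.0348, 0.0199 and 0.104 CPM, then 9.10, 9.41 and 11.4 CPM. The MIZ libraries of these 5 genes lay well apart from all others, although several of the values elsewhere rest on few reads.

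Npas4, an activity-dependent transcription factor of neurons, stood at 1.23, 1.75 and 1.07 CPM in undifferentiated, 0.0695, 0.0796 and 0.166 CPM in differentiated and 4.99, 5.02 and 8.21 CPM in MIZ libraries. Lrtm1 stood at 19.3, 17.4 and 8.83 CPM and Svop at 6.95, 6.99 and 3.76 CPM with MIZ, so the third MIZ library was the lowest for both. Kcnq5, a potassium channel, reached 6.14 CPM. Syt17, a synaptotagmin, and Nnat, a small membrane protein encoded by an imprinted gene, reached 16.5 and 14.3 CPM. The fixed list of 27 tested neuronal and excitable cell genes contained 0 of the chosen genes, where the rule took 83 of all 17173 genes tested. Of the 27, 16 were higher and 3 lower than in differentiated cells, and 8 and 7 than in undifferentiated cells. Over all genes tested 35.9% were higher and 35.1% lower than in differentiated cells, and 33.7% and 33.3% than in undifferentiated cells. Glial markers were read beside the neural genes, since nerve-associated cells can be carried along in fat. The Schwann and glia list of 13 genes summed to 375–391 CPM in undifferentiated, 178–233 CPM in differentiated and 298–415 CPM in MIZ libraries. Within it Sox10, the defining factor of the lineage, averaged 9.17, 4.58 and 18.2 CPM and the neurotrophin receptor Ngfr 45.5, 37.7 and 113 CPM, so both were highest with MIZ, and S100b 3.06, 4.06 and 1.84 CPM, which was lowest there. Of 12 tested genes of the list, 7 were higher and 4 lower with MIZ in each of the comparisons with undifferentiated and differentiated cells. The part of such cells in the result was not tested.

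**Figure D3:**
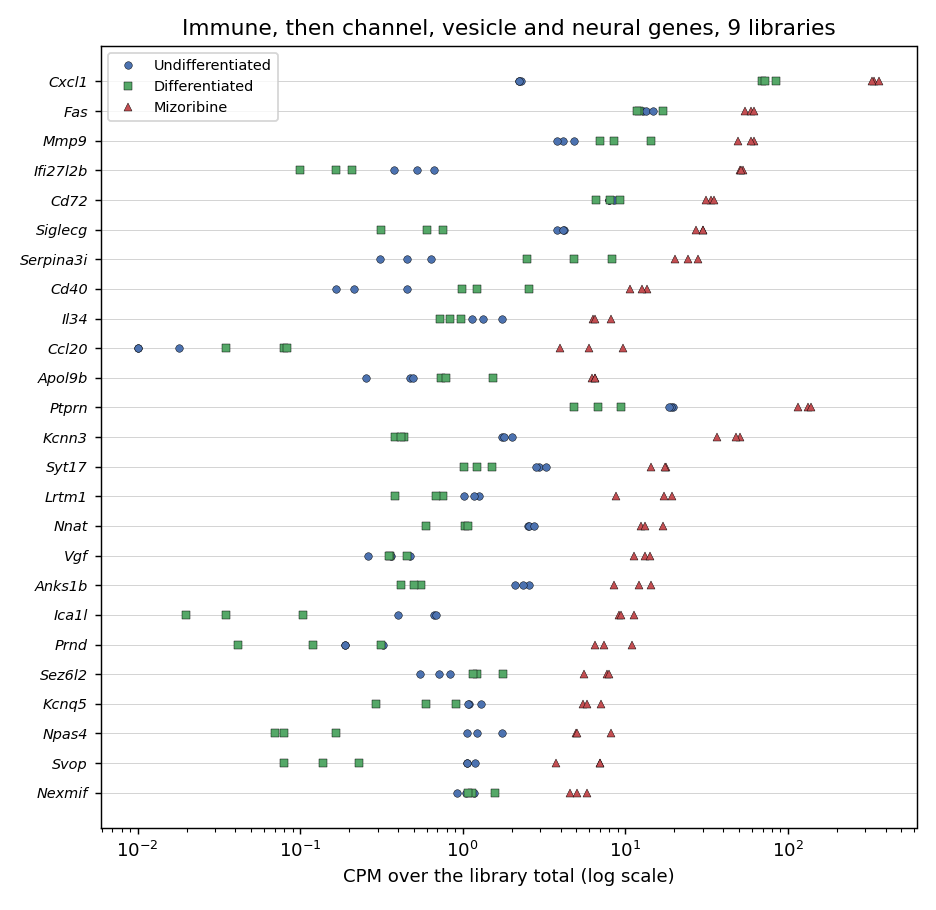
CPM in each of the 9 libraries (log axis) for the 11 immune and inflammatory genes and 14 of the channel, vesicle and neural genes, coloured by group, with values of 0 drawn at 0.01. Differentiated points lie right of undifferentiated ones in Cxcl1, Serpina3i, Cd40, Mmp9, Apol9b, Ccl20 and Sez6l2, and left of them in most neural genes.

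Matrix, adhesion and secreted genes ranged from abundant to scarce in the other groups. Cd44, the hyaluronan receptor, stood at 152, 163 and 152 CPM in undifferentiated, 194, 121 and 104 CPM in differentiated and 649, 789.9 and 751 CPM in MIZ libraries. Itga5, the alpha subunit of the fibronectin receptor, stood at 127, 122 and 129 CPM, then 124, 128 and 109 CPM, then 567, 579.5 and 713 CPM. For both genes the undifferentiated and differentiated libraries overlapped. Itgb1, the beta subunit that pairs with Itga5, averaged 984, 440.2 and 2458 CPM and did not reach the limit of 4 over undifferentiated cells. Tfpi2, an inhibitor of serine proteases in the matrix, had the largest ratio of this group, 14.0 over differentiated cells, with 2.91, 2.65 and 2.39 CPM, then 6.54, 3.92 and 2.97 CPM, then 53.3, 65.7 and 69.3 CPM. Adamts14, a procollagen-processing protease, averaged 164 ± 11.8 CPM with MIZ, 10.7 and 8.96 times the other means. Igfbp5, a binding protein of insulin-like growth factors, stood at 416, 399 and 275 CPM with MIZ, and Fstl3, which binds activins, at 64.2, 60.6 and 62.9 CPM.

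Receptors and guidance molecules included Ptprz1, a receptor phosphatase that binds pleiotrophin. It stood at 10.5, 11.5 and 13.02 CPM in undifferentiated, 1.11, 1.41 and 1.62 CPM in differentiated and 75.5, 83.4 and 105 CPM in MIZ libraries. Htr1b, a serotonin receptor, had the largest ratio of this group, 7.98 over undifferentiated cells, at 7.22, 7.57 and 8.14 CPM, then 5.56, 4.12 and 2.93 CPM, then 50.6, 57.5 and 74.9 CPM. Neither gene's groups overlapped. Sema7a, a membrane-anchored semaphorin, Ntn4, a netrin, and Flt4, the receptor of lymphatic growth factors, averaged 40.3, 28.2 and 14.8 CPM with MIZ. The ephrin receptor Epha5 averaged 12.6 ± 3.15 CPM and the alpha-adrenergic receptor Adra2a 12.6 ± 2.05 CPM. The endothelial list of 18 genes, read because Flt4 marks lymphatic endothelium, summed to 126–153, 95.7–111 and 183–202 CPM in the 3 groups. Flt1 alone made up most of this with MIZ (35.8, 87.4 and 183 CPM), and the defining markers Pecam1 (0.671, 0.276 and 0.476 CPM) and Cdh5 (2.08, 0.419 and 0.646 CPM) were below 1 CPM with MIZ. The lymphatic factor Prox1 averaged 0.882, 0.274 and 1.35 CPM and was higher with MIZ than in differentiated (edgeR adjusted p = 1.56e-05) and undifferentiated cells (adjusted p = 0.0174). Lyve1, another lymphatic marker of the list, went the other way, at 1.82, 0.279 and 0.112 CPM. It was lower with MIZ than in undifferentiated cells (edgeR adjusted p = 4.15e-05), and no difference from differentiated cells was detected (adjusted p = 0.109). Of 14 tested genes of the list, 3 were higher and 6 lower than in differentiated cells and 2 and 8 than in undifferentiated cells, and the part of such cells in the result was not tested.

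Ces2e, a carboxylesterase that hydrolyses lipid and drug esters, had the largest ratio of all, 137 over undifferentiated and 789.8 over differentiated cells. It stood at 0.189, 0.284 and 0.199 CPM in undifferentiated, 0.0348, 0.0199 and 0.0623 CPM in differentiated and 37.0, 35.7 and 19.7 CPM in MIZ libraries, with 31, 5 and 3528 reads summed per group, and the third MIZ library was the lowest. Ces2g stood at 2.51, 3.64 and 3.20 CPM, then 1.39, 1.47 and 1.10 CPM, then 35.5, 35.9 and 22.0 CPM, with the same library lowest. The pair lie on chromosome 8, Ces2e at 104926260 to 104934672 and Ces2g at 104961718 to 104969537 on the plus strand of GRCm38, with 1 annotated gene between them. Relatives were close to absent, with 0 reads of Ces2a in any library and 1, 0 and 7 reads of Ces2b, 0, 5 and 2 of Ces2c and 5, 0 and 13 of Ces2f in the 3 groups. Reads that fit several of these paralogs could be split or lost in the counting.

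Mycl, a member of the Myc family, stood at 1.78, 2.29 and 1.86 CPM in undifferentiated, 1.495, 1.37 and 1.496 CPM in differentiated and 43.4, 50.6 and 71.0 CPM in MIZ libraries, 27.8 times the higher other mean. Myc itself averaged 19.8, 74.4 and 58.4 CPM. Ass1, the argininosuccinate synthase of arginine synthesis, differed little between the other groups, at 35.6, 34.0 and 34.6 CPM and 32.7, 31.0 and 26.6 CPM, and stood at 219.8, 254 and 269.5 CPM with MIZ. Tent5b, a poly(A) polymerase, averaged 31.2 ± 3.07 CPM and Slco3a1, an organic anion transporter, 117 ± 5.23 CPM.

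Among the 13 noncoding and predicted genes, 3300005D01Rik was the most abundant at 20.4 ± 1.89 CPM with MIZ, against 1.71 and 0.266 CPM. G930009F23Rik had the largest ratio at 31.9, with 4.97, 6.65 and 6.03 CPM in MIZ libraries and group means of 0.0988 and 0.184 CPM elsewhere. The exons of 16 of the 83 genes overlap a gene on the opposite strand, and since the strand setting of the counting is not given in the sources used here, their reads cannot be told apart from those of the partner. The sharpest cases were AC161119.1, which overlaps the collagen cross-linking enzyme Lox (2680, 805 and 3928 CPM), and Gm9913, which overlaps fibrillin 1, Fbn1 (3333, 429 and 2211 CPM). Coding genes with such an overlap include Tagln, Ccn2, Myom1, Lims2, Ica1l, Ptprn, Svop, Htr1b, Scube3, Il34, Fstl3, Bcam and Cd72.

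The rule held the means of both other groups at or below the MIZ mean divided by 4 but did not fix their order, so differentiated cells were compared with undifferentiated cells in edgeR's quasi-likelihood test over the 17173 genes with enough reads. Across all genes tested, 36.2% were higher and 41.5% lower in differentiated cells at an adjusted p under 0.05 (Benjamini-Hochberg). Of the 83 chosen genes, 10 (12.05%) rose with differentiation, 47 (56.6%) fell and 26 did not pass. Both means entered the rule, and fewer genes passed its limit over undifferentiated cells (271) than over differentiated cells (621). The rule can therefore shape this split, and the shares of all genes, which met no such limits, are not a like comparison. The median log2 change of the chosen genes was −0.86, against −0.08 over all genes tested. Without the first differentiated library 12 rose and 44 fell. Of the 83, 82 had at least 5 reads in at least 3 of these 6 libraries, and Ccl20 entered the fit only through the MIZ libraries. A scaling by library totals in place of edgeR's trimmed means would shift the median log2 change of this comparison by −0.17.

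The contractile genes accounted for 17 of the 47 that fell, all but Lims2, whose log2 change was 0.15 (adjusted p = 0.396). The largest falls of all were Cnn1 (log2 −4.35 ± 0.21 SE, adjusted p = 6.73e-09), Myl9 (−4.31 ± 0.131, adjusted p = 1.65e-10), Sh3bgr (−4.00 ± 0.35, adjusted p = 9.35e-07), Lmod1 (−3.64 ± 0.142, adjusted p = 1.18e-09) and Acta2 (−3.61 ± 0.181, adjusted p = 9.28e-09), by edgeR. The group's median was −2.64. Channel, vesicle and neural genes had 1 that rose (Sez6l2, log2 1.12) and 9 that fell, and receptors and guidance molecules had 0 and 5.

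Immune genes were divided, with 5 that rose and 3 that fell of 11. Those that rose were the 5 largest rises among all chosen genes. Cxcl1 rose by log2 5.25 ± 0.0947 SE (edgeR adjusted p = 6.14e-12), Serpina3i by 3.60 ± 0.459 (adjusted p = 2.5e-05), Cd40 by 2.54 ± 0.434 (adjusted p = 0.000253), Apol9b by 1.45 ± 0.333 (adjusted p = 0.00199) and Mmp9 by 1.37 ± 0.234 (adjusted p = 0.000255). Siglecg, Ifi27l2b and Il34 fell, by 2.59, 1.61 and 0.53 on the log2 scale. Ccl20, counted among those that did not pass, had 10 reads over these 6 libraries and no test of it is given.

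Matrix genes had 2 that rose (Tfpi2, log2 0.88, and Cdh6, log2 0.42) and 4 that fell, enzyme and transport genes 0 and 3, and noncoding genes 2 and 6. No difference between these groups was detected for Cd44 (adjusted p = 0.929), Fstl3 (adjusted p = 0.974), Ass1 (adjusted p = 0.755) or Fas (adjusted p = 0.296) by edgeR. For Ass1 the log2 change was −0.03 ± 0.0909 SE and for Itga5 0.11 ± 0.0946 SE. The calls of Ces2e, Hspb7, Il34, Cdh6 and C430002N11Rik lay close to the threshold (edgeR adjusted p = 0.0432, 0.0368, 0.0386, 0.0422 and 0.0456) and were lost in several alternatives.

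**Figure D4:**
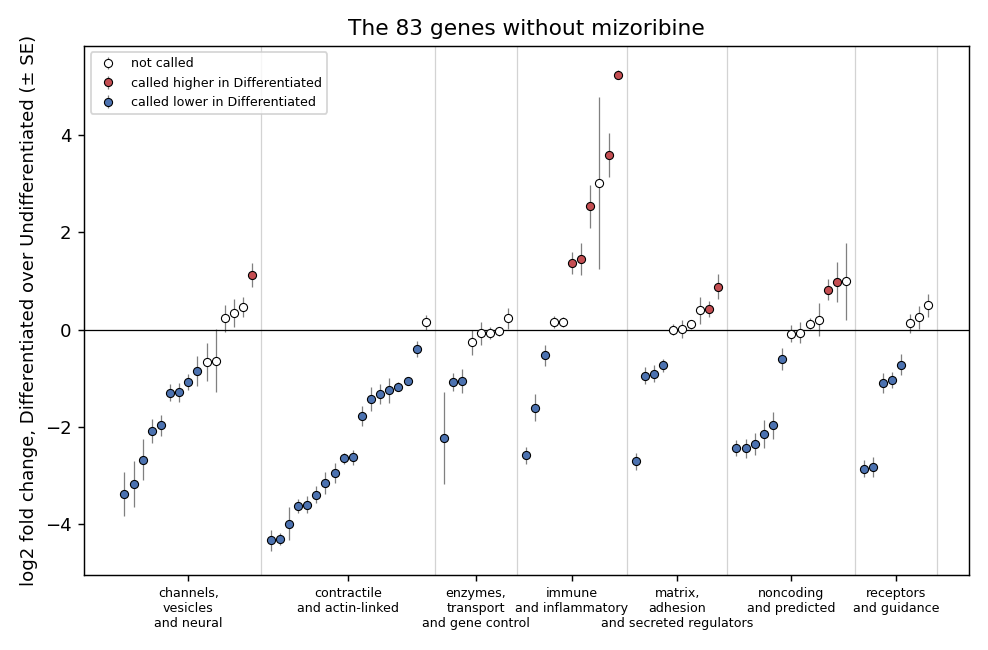
Log2 change of differentiated against undifferentiated cells with its SE (y axis) for the 83 chosen genes, ordered within 7 roles, with filled points at an adjusted p under 0.05. Contractile genes lie below 0 apart from Lims2, and the immune genes spread from −2.59 (Siglecg) to 5.25 (Cxcl1).

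The MIZ libraries were not equally high for the chosen genes. The coefficient of variation across the 3 MIZ libraries had a median of 13.3% for the 83 genes and 5.01% over all genes at 5 CPM or more. The highest value was in MIZ library 1 for 14 genes, library 2 for 28 and library 3 for 41, where all genes at the floor gave 33.4%, 39.2% and 27.3%. The third library was the highest for 17 of the 18 contractile genes, and for Acta2 it stood at 4421 CPM against 3401 and 3275 CPM. It was the lowest for 19 of the 83 genes, Ces2e, Ces2g, Lrtm1 and Svop among them, where it was the lowest for 45.6% of all genes at the floor. Without that library the rule chose 82 genes, 80 of them among the 83.

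**Figure D5:**
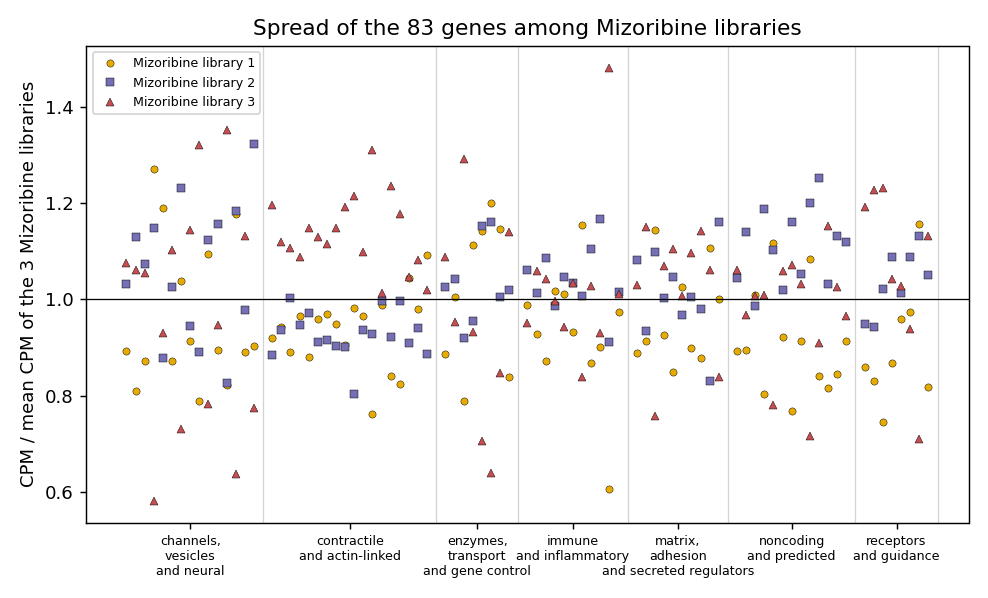
Each MIZ library divided by the mean of the 3 MIZ libraries for the 83 chosen genes, grouped by role, with 1 colour per library and a line at 1. The third library lies above 1 for the contractile genes and below 1 for Ces2e, Ces2g, Lrtm1 and Svop.

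Pathway lists were read for how many of their genes the rule took, and calls and medians are given for the genes it did not take. Of all 17173 genes tested the rule took 83, so 0 taken from a short list is not a result about that list. Against differentiated cells, 35.9% of all genes tested were higher and 35.1% lower with MIZ, and against undifferentiated cells 33.7% were higher and 33.3% lower, with medians near 0 (0.02 and −0.00). Of the 40 tested genes of the contractile and SRF target list, 12 were chosen. Of the other 28, 24 were higher and 1 lower than in differentiated cells, with a median log2 change of 2.66. Against undifferentiated cells 22 of these were higher and 4 lower, with a median of 1.15. Higher than in both groups were 18 of the 28 (64.3%), against 14.7% of all unchosen genes tested. Kcnmb1, a smooth muscle potassium channel subunit, averaged 0.134, 0.0268 and 3.87 CPM in undifferentiated, differentiated and MIZ cells and rose over differentiated cells by log2 6.69 ± 0.464 SE (edgeR adjusted p = 1.77e-07). Jph2, which couples membranes in muscle, averaged 16.8, 0.596 and 42.0 CPM (log2 5.94 ± 0.166, adjusted p = 1.6e-10), and the integrin Itga8 39.1, 2.28 and 63.8 CPM (log2 4.62 ± 0.216, adjusted p = 7.84e-09).

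Of 23 tested YAP and TEAD targets, 2 were chosen. Of the other 21, 18 were higher and 2 lower than in differentiated cells (median log2 1.87), with 15 and 3 against undifferentiated cells (median 0.53). Higher than in both groups were 13 of the 21 (61.9%), a share near that of the contractile list. Crim1, which binds growth factors of the BMP family, averaged 77.2, 18.0 and 148 CPM and Foxf2, a forkhead factor, 1.80, 0.509 and 6.55 CPM. The TGF-beta list of 34 had 1 chosen gene, Ccn2, and of the other 33, 27 were higher and 3 lower than in differentiated cells but 15 and 15 against undifferentiated cells. Of these 33, 14 (42.4%) were higher than in both groups. Of 42 p53 targets, 2 were chosen (Fas and Svop), and of the other 40, 29 were higher and 5 lower than in differentiated cells (median log2 0.82) and 29 and 7 against undifferentiated cells (median 0.59). Of these 40, 22 (55%) were higher than in both groups. Pmaip1, a death-promoting BCL2-family protein, averaged 14.5, 2.75 and 21.2 CPM, and Gdf15, a stress hormone, was lower than in differentiated cells, at 6.12, 25.8 and 18.2 CPM (log2 −0.65 ± 0.157, edgeR adjusted p = 0.00315).

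Immune lists behaved unevenly. Of 32 NF-kB targets, 3 were chosen (Ccl20, Cxcl1 and Mmp9), and of the other 29, 11 were higher and 10 lower than in differentiated cells (median log2 0.14) and 26 and 0 against undifferentiated cells (median 2.26). Cxcl5, a relative of Cxcl1, averaged 33.0, 60.2 and 179 CPM (log2 1.45 ± 0.184 over differentiated cells, edgeR adjusted p = 3.18e-05). Il1b, an inflammatory cytokine, was lower than in differentiated cells at 0.142, 10.6 and 1.37 CPM (log2 −3.06 ± 0.736, adjusted p = 0.00324), as were the acute-phase genes C3 and Saa3. Of 59 interferon-stimulated genes, 1 was chosen (Ifi27l2b). Of the other 58, 4 were higher and 40 lower than in differentiated cells (median log2 −0.91), while 22 were above and 6 below undifferentiated cells (median 0.44). Higher than in both groups were 2 of the 58 (3.45%). With Ifi27l2b included, 5 were higher than in differentiated cells, and 10 without the first differentiated library. Oasl1, an antiviral gene, averaged 0.719, 8.37 and 1.68 CPM (log2 −2.41 ± 0.382, edgeR adjusted p = 0.000181). Of 27 tested chemokines, 2 were chosen, and of the other 25, 12 were higher and 6 lower than in differentiated cells and 15 and 7 against undifferentiated cells.

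The list of senescence-associated secreted factors held 4 chosen genes among 48 (Ccl20, Cxcl1, Igfbp5 and Mmp9), and of the other 44, 23 were higher and 15 lower than in differentiated cells and 27 and 12 against undifferentiated cells. Igfbp2 averaged 16.6, 1.64 and 44.6 CPM, while Igfbp4 averaged 422, 173 and 26.2 CPM (log2 −2.86 ± 0.0724 against differentiated cells, edgeR adjusted p = 8.81e-11), so the binding proteins of this list moved in opposite directions. Of 33 xenobiotic and detoxification genes, 2 were chosen, Ces2e and Ces2g, and of the other 31, 9 were higher and 15 lower than in differentiated cells and 16 and 10 against undifferentiated cells. Ces1d, another carboxylesterase, averaged 0.00789, 57.3 and 17.2 CPM. Lists of which the rule took 0 genes included ATF4 targets (2 higher and 24 lower of 35 than in differentiated cells, 33 and 0 against undifferentiated cells), glucocorticoid targets (4 and 22 of 34, then 29 and 4), hypoxia genes (3 and 20 of 26, then 20 and 4), DNA replication genes (19 and 5 of 38, then 0 and 37) and cholesterol synthesis genes (2 and 21 of 24, then 1 and 23).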

How the data were processed

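RNA-seq was analysed from 9 libraries of mouse SVF cells. The authors deposited raw counts per gene and library. According to the methods and the submitters' processing notes, reads came from RNA depleted of ribosomal RNA and selected for poly(A), were trimmed with Trim Galore 0.6.7 and aligned to GRCm38 (mm10) with STAR. For the counting itself the labels give HTSeq and the methods STAR. The annotation release and the strand setting are not given in the sources used here. CPM used library totals. The genes and the lists were chosen with earlier results of these data known, and roles were assigned after the members were seen. Tests were edgeR 4.0.16 quasi-likelihood fits (R 4.3.3, limma 3.58.1) over all 9 libraries with trimmed-mean scaling, on the 17173 genes that reached 5 counts in 3 or more libraries, with Benjamini-Hochberg adjustment at 0.05. These genes held 99.99% of all counts, and intervals cover counting error only. The steps were checked on simulated counts. Alternatives were DESeq2 1.42.0 and its size factors, other filters and limits, a replicate block, the 6 compared libraries alone, and each library left out. Coordinates and symbols were those of GENCODE M21 and promoter windows those of RefSeq GRCm38.p6. Genes named in the text were the 15 with the largest ratio, the 10 most abundant, up to 4 per list or family with 2 or more chosen genes, those next to each limit or to each other, the 5 largest changes each way between differentiated and undifferentiated cells, and up to 3 unchosen genes each way per list discussed. Others were added to cover each role after their values were seen. Plots were drawn with matplotlib 3.10.9. A few single genes are not reported here, although the counts include them.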

Additional observations from a re-analysis of the deposited data

How the results depend on the processing

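The rule chose 83 genes as stated, 129 at 3 times both means, 25 at 8 times, and 54 where every MIZ library had to be at least 4 times every other library. With trimmed-mean library sizes it chose 80, of which 77 were shared, and the 6 it lost included AC133601.1, Cd72, Cdh6, Fas and Nexmif. Leaving out 1 library at a time gave 79 to 94 genes. Between differentiated and undifferentiated cells, the number of chosen genes called higher ran from 8 to 13 and lower from 43 to 47 with 1 library left out. The call of 66 of the 83 genes was the same in all 15 alternatives, 17 changed in at least 1, and 0 reversed in sign. With the replicate number as a block, 12 were higher and 46 lower, and same-numbered libraries correlated at −0.0447 to 0.0630 in their deviations, so the numbers were not taken as pairs. Of 1440 counts of single lists under the alternatives, 1426 stayed within 1.5 times the stated count. Genes under about 10 reads in a group, such as Ccl20 and Ces2e, are limited by depth. The rule's limits rest on 3 libraries per group and on library totals. Reads shared by paralogs or by overlapping genes on the opposite strand could not be separated, and the deposited tables cannot tell a change in cell make-up from a change per cell.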
